A study of Mus musculus with 25 samples.

Results

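The 32 genes described here encode the chaperones, folding enzymes, stress sensors, transcription factors and degradation factors of the endoplasmic reticulum (ER). They were measured in whole pituitaries of hpg mice. The members were named gene by gene, each by its symbol, and each had to average at least 3 over the 25 animals on the deposited regularized log2 scale. All 32 had 1 row in a table of 47069 genes and all 32 passed, among the 19141 genes that were tested. They comprise 9 chaperones and co-chaperones of the ER lumen, 2 lectin chaperones, 4 protein disulfide isomerases, 3 stress sensors, 2 transcription factors, 3 targets of the amino acid and integrated stress response, 7 factors of ER-associated degradation and 2 translocon proteins.

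Every animal was homozygous for the hpg deletion and so made no gonadotropin-releasing hormone (GnRH) of its own, the placebo animals included. The groups were 8 GnRH males, 6 placebo males, 6 GnRH females and 5 placebo females by the sample labels, which were followed, while the text on the series' design speaks of 5 to 7 replicates. GnRH animals were given 1 µg of GnRH and placebo animals saline, daily and intraperitoneally, over 10 days, and their pituitaries were collected 1 h after the final dose. The title of the series concerns activating transcription factor 3 (ATF3), a stress-induced transcription factor, and the β-subunit of follicle-stimulating hormone. The tissue holds many cell types, of which the gonadotropes, the cells that carry the GnRH receptor, are a minority. In such bulk RNA, fewer cells of a type and less RNA per cell cannot be told apart, and a change in gonadotropes alone would be diluted by the other cells.

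As background, secretory cells fold their hormones in the ER lumen with the help of BiP (Hspa5), an Hsp70 chaperone, and of J-domain proteins, lectin chaperones and disulfide isomerases. When unfolded protein accumulates, the membrane sensors IRE1α (Ern1), PERK (Eif2ak3) and ATF6 start the unfolded protein response. IRE1α splices the Xbp1 messenger, ATF6 is cut and moves to the nucleus, and PERK slows translation and favours ATF4, which induces CHOP (Ddit3). Pituitary endocrine cells export large amounts of peptide hormone, and GnRH signalling itself raises calcium and protein synthesis in gonadotropes. Splicing of Xbp1, cleavage of ATF6 and phosphorylation of PERK are not seen in gene-level values.

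The promoters of many of these genes carry short elements that are textbook targets of the pathway, and they are shown here because they give the members a grouping that does not use the expression values. Sequences are from RefSeq on build GRCm38.p6 and cover 250 bases before and 50 bases after the annotated start. Of the 32 members, 29 had a promoter in the table, with 30 promoters in all, and Hyou1, Manf and Derl1 had none. A gene was counted once if any of its promoters held the motif. Both strands were searched for each motif. The ER stress response element, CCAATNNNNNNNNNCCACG, the site of ATF6 with the factor NF-Y, was found in 9 of the 29 members (31.0%), against 37 of 27025 genes in all (0.137%). These 9 were Hspa5, Hsp90b1, Dnajc3, Creld2, Calr, Canx, Pdia6, Syvn1 and Derl3, with a pair of copies in Hsp90b1. The second ER stress response element, ATTGG and CCACG with any 1 base between them, was found in Dnajb11 and Herpud1 (6.90% of 29, against 0.0444% of all genes). The element TGATGNAA, a site of ATF4 and C/EBP factors, was found in Trib3, Asns, Chac1 and Herpud1 (13.8%, against 4.51%). The UPR element TGACGTGG was found in none of the 29 members, against 0.714% of all genes. The members were picked as genes of this pathway, so a higher share among them describes the list and was not tested. The motifs do not overlap one another in these promoters.

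The promoter of Hspa5, the most studied target of the response, is given for the 250 bases at chr2:34771840-34772089, plus strand, with the ER stress response element in capitals. That of Herpud1, which holds both kinds of element and whose values are described further on, is given for chr8:94386179-94386428, plus strand, with both elements in capitals. The other lines give the element in capitals with up to 12 bases on either side for members whose values the results turn on, read 5′ to 3′ on the strand of the gene.
Hspa5 promoter: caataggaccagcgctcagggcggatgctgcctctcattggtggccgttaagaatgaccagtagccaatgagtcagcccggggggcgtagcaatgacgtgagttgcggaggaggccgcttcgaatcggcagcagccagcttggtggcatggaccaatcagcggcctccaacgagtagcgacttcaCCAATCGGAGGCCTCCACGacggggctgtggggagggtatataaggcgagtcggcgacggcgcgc
Herpud1 promoter: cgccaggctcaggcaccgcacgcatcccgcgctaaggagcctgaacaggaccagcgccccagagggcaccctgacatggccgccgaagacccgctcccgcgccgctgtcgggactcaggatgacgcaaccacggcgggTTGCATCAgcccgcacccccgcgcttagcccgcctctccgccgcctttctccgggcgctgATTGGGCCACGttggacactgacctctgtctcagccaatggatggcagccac
Pdia6, chr12:17266479-17266521, plus: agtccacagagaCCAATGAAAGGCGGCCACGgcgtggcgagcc
Dnajc3, chr14:118937815-118937857, plus: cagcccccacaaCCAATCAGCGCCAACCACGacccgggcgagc
Canx, chr11:50325788-50325830, minus: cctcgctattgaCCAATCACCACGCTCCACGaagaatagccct
Syvn1, chr19:6046520-6046562, plus: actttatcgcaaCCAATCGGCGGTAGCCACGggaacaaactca
Creld2, chr15:88819508-88819550, plus: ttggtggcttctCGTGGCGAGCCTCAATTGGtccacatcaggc
Calr, chr8:84847063-84847105, minus: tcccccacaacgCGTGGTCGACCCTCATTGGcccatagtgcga
Asns, chr6:7693213-7693244, minus: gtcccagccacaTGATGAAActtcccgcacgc
In Creld2 and Calr the element lies on the other strand and reads as its reverse complement. The same holds for the TGATGNAA element in the Herpud1 promoter. Counted from the annotated start, the last base of the element was -47 in Hspa5, -26 in Syvn1 and -144 in Calr, while the second element of Dnajb11 lay after the start, at bases 7 to 17. A match is a description of these letters and not evidence that a factor is bound in the pituitary.

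**Figure D1:**
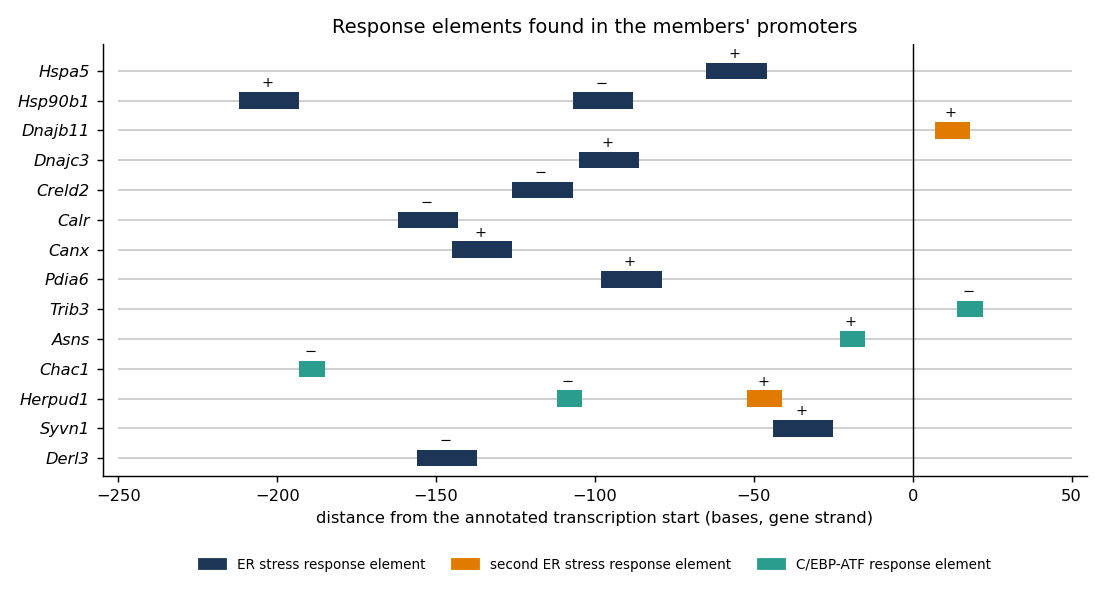
Position of each element found in the members' promoters, as distance in bases from the annotated transcription start on the strand of the gene, with the strand of the element as + or −. Most elements lie before the start, between bases -212 and -16, and those of Dnajb11 and Trib3 lie after it.

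Most of the members were abundant messengers in these pituitaries. Levels between genes are compared here per kilobase of exon, on the log2 scale. By that measure the members had a median percentile of 92.8 among all genes tested, with a range of 40.4 for Derl3 to 99.6 for Calr. Calr and Pdia3, the lectin chaperone calreticulin and the isomerase that works with it, both lay at the 99.6th percentile, and Hspa5 and P4hb, the classical disulfide isomerase, both at 99.3. The lowest members were Edem1 at 45.8, a factor that draws misfolded glycoproteins to degradation, Trib3 at 40.6, a pseudokinase induced by CHOP, and Derl3 at 40.4. Ddit3 (CHOP), often used as a sign of unresolved ER stress, lay at 85.9 and Chac1, a glutathione-degrading enzyme of the same branch, at 50.4. With the group means removed, the SD between animals ran from 0.06 for Hsp90b1 to 0.23 for Canx. The median SD was 0.13, against 0.12 for all genes tested, and 14 of the 32 members lay below the median of all genes.

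No member passed the test in any of the 6 contrasts, with limma and an adjusted p under 0.05 over all 19141 genes. In males 0 of 32 members passed, against 0.496% of all genes, and in females 0 of 32, against 0.0993%. For the effect averaged over the sexes the counts were 0 of 32 and 1.71%, and for the male effect minus the female effect 0 of 32 and 0%. The comparisons of males with females gave 0 of 32 in both treatments, against 0.0522% of all genes within GnRH and 0.0470% within placebo. At an unadjusted p under 0.05, 2 of 32 members differed in males (6.42% of all genes), 2 in females (9.57%), 5 averaged over the sexes (12.0%), 0 in the difference of the effects (2.76%), 3 between the sexes within GnRH (5.53%) and 0 within placebo (3.07%). These counts are close to the shares over all genes. The 32 members also had no common direction. The difference between GnRH and placebo was positive in 13 of 32 members in males and 15 in females, with a median of -0.01 in each. Among lumenal and lectin chaperones and isomerases in females, only Manf (0.03), P4hb (0.03) and Pdia3 (0.01) had a positive difference. With the length slope of each library as a covariate, a property described further on, only P4hb (0.01) did. In males these genes had both signs. With this covariate Dnajb11, Sdf2l1, Canx, Pdia4, Ern1 and Herpud1 had an unadjusted p under 0.05 in females, by limma, and none passed. Direction by role was not tested.

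The tests were informative about the size of such differences in whole-pituitary RNA. The median standard error of a member's difference was 0.07 in males, 0.08 in females and 0.05 for the average. The farthest bound of any member's 95% confidence interval was 0.38 in males, the upper bound for Herpud1, a 1.30-fold difference. In females it was -0.58, the lower bound for Canx, a fold of 0.67. For scale, Fshb, the β-subunit of follicle-stimulating hormone, was higher by 2.77 ± 0.24 in GnRH males and by 2.07 ± 0.27 in GnRH females (difference ± standard error, limma adjusted p = 1.5e-07 and 0.00035). Fshb is a gonadotrope marker, while a change of a member in gonadotropes alone would be diluted by the other cells. The regularized log2 scale shrinks differences, most of all for low genes, which here include Trib3 and Derl3.

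**Figure D2:**
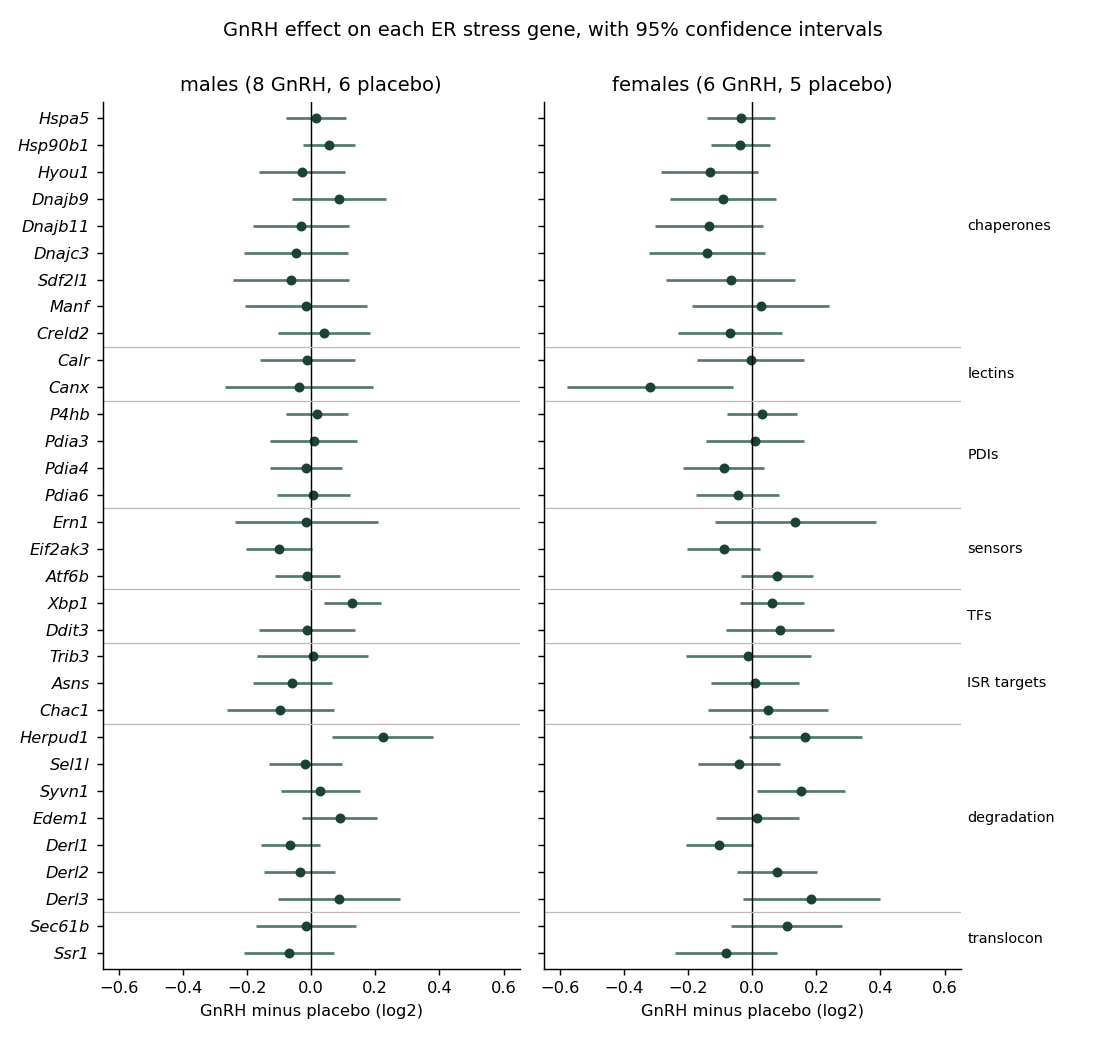
Difference between GnRH and placebo animals for each of the 32 members (dots, log2) with its 95% confidence interval (bars), in males at left and females at right, ordered by role. Most intervals cross 0. Those of Xbp1 and Herpud1 in males and Syvn1 in females lie above 0 and that of Canx in females below 0, before adjustment for the number of genes.

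Hspa5, which encodes BiP, the main Hsp70 of the ER (chr2:34771970-34777547, plus strand, build mm10), was nearly flat across the groups. It had a lowest, median and highest level of 13.78, 13.95 and 14.08 in GnRH males, against 13.80, 13.93 and 14.02 in placebo males. In GnRH females the levels were 13.80, 13.87 and 13.98, against 13.89, 13.82, 13.97, 13.96 and 13.89 in the 5 placebo females. The groups overlapped almost wholly. The difference was 0.01 ± 0.05 in males (95% interval -0.08 to 0.11, adjusted p = 0.999) and -0.04 ± 0.05 in females (-0.14 to 0.07, adjusted p = 0.846).

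Hsp90b1, the ER Hsp90 known as GRP94, was similarly flat, with 13.62 ± 0.06 in GnRH males and 13.57 ± 0.06 in placebo males, and 13.58 ± 0.06 in GnRH females and 13.62 ± 0.04 in placebo females (mean ± SD). The male effect minus the female effect was 0.09 ± 0.06 (limma adjusted p = 0.999). Hyou1, the large Hsp70 relative that exchanges the nucleotide of BiP, averaged 12.28 ± 0.11 in GnRH males and 12.31 ± 0.18 in placebo males, and 12.26 ± 0.10 in GnRH females and 12.39 ± 0.10 in placebo females. All 6 GnRH females lay below the placebo mean, and the difference of -0.13 ± 0.07 did not pass (adjusted p = 0.579). Dnajb9, a J-domain co-chaperone that keeps IRE1α inactive, showed 11.16 ± 0.08 in GnRH males and 11.07 ± 0.09 in placebo males, against 11.13 ± 0.21 in GnRH females and 11.22 ± 0.15 in placebo females. Its effects had opposite signs in the sexes, 0.09 in males and -0.09 in females, and the difference of 0.18 ± 0.11 did not pass (adjusted p = 0.999). Dnajb11, Dnajc3, Sdf2l1, Manf and Creld2 differed by -0.06 to 0.04 in males and -0.14 to 0.03 in females, and in both sexes the GnRH and placebo animals overlapped for all 9 genes of this role. With the length slope of each library as a covariate, a property described further on, the female difference was -0.19 for Dnajb11 (-0.13 without it, adjusted p = 0.329 with it) and -0.16 for Sdf2l1 (-0.07 without it, adjusted p = 0.520 with it).

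The lectin chaperone Canx (calnexin, chr11:50293961-50325673, minus strand), which holds glycoproteins at the ER membrane until they are folded, had the largest female difference of all members. Its lowest, median and highest levels were 11.99, 12.28 and 12.87 in GnRH females, against 12.92, 12.38, 12.76, 12.72 and 12.74 in placebo females. Of the 6 GnRH females, 4 lay below every placebo female and the other two lay within the placebo range. The difference was -0.32 ± 0.13 (adjusted p = 0.435). In males Canx had 12.37, 12.61 and 12.73 with GnRH, against 12.26, 12.70 and 12.83 with placebo, a difference of -0.04 ± 0.11. The length slope moved with Canx, and with it in the fit the female difference was -0.17 (adjusted p = 0.354). Its soluble relative Calr averaged 13.99 ± 0.14 in GnRH males and 14.00 ± 0.14 in placebo males, and 14.00 ± 0.16 in GnRH females and 14.00 ± 0.10 in placebo females.

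The disulfide isomerases, which form and rearrange the cystine bonds that gonadotropin subunits need, hardly moved. P4hb, Pdia3, Pdia4 and Pdia6 differed by -0.02 to 0.02 in males and by -0.09 to 0.03 in females. None of the 4 differed at an unadjusted p under 0.05 in either sex. With the length slope as a covariate, the female difference of Pdia4 was -0.14 (unadjusted p = 0.00987, adjusted p = 0.328), beside -0.09 without it.

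Among the sensors, Eif2ak3 (PERK, the kinase that phosphorylates eIF2α) had a lower mean with GnRH in both sexes, by -0.10 ± 0.05 in males and -0.09 ± 0.06 in females. Its lowest, median and highest levels were 9.84, 9.89 and 10.04 in GnRH males, against 9.88, 9.98 and 10.17 in placebo males. In GnRH females they were 9.79, 9.90 and 10.04, against 10.11, 9.87, 10.01, 10.00 and 9.97 in placebo females. In males 7 of 8 GnRH animals lay below the placebo mean and 4 lay below every placebo male, and in females 5 of 6 lay below the placebo mean. The averaged difference was -0.09 ± 0.04 (unadjusted p = 0.0179, adjusted p = 0.267). Ern1 (IRE1α) differed by -0.01 ± 0.11 in males and 0.13 ± 0.12 in females, where it was 0.25 with the length slope as a covariate (adjusted p = 0.364). Atf6b, a relative of ATF6, averaged 10.13 ± 0.09 in GnRH males and 10.14 ± 0.04 in placebo males, and 10.24 ± 0.11 in GnRH females and 10.16 ± 0.07 in placebo females.

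Xbp1, the transcription factor that IRE1α activates (chr11:5520659-5525893, plus strand), had the smallest p of the members in males. It had a lowest, median and highest level of 11.89, 11.95 and 12.11 in GnRH males, against 11.76, 11.83 and 11.95 in placebo males. All 8 GnRH males lay above the placebo mean, and 4 lay above every placebo male. In GnRH females the levels were 11.85, 11.94 and 12.04, against 11.87, 11.92, 11.90, 11.86 and 11.84 in placebo females, and 4 of 6 GnRH females lay above every placebo female. The difference was 0.13 ± 0.04 in males (1.09-fold, unadjusted p = 0.00659, adjusted p = 0.335), 0.06 ± 0.05 in females and 0.09 ± 0.03 on average (adjusted p = 0.179). It did not pass the threshold over all genes. Ddit3, the CHOP gene, differed by -0.01 ± 0.07 in males and 0.09 ± 0.08 in females, and its averaged 95% interval ran from -0.08 to 0.15.

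The 3 targets of the amino acid and integrated stress response had no common direction in either sex. Trib3 averaged 6.84 ± 0.14 in GnRH males and 6.83 ± 0.17 in placebo males, and 6.67 ± 0.21 in GnRH females and 6.68 ± 0.12 in placebo females. Asns, asparagine synthetase, differed by -0.06 ± 0.06 in males and 0.01 ± 0.07 in females. Chac1 differed by -0.10 ± 0.08 in males and 0.05 ± 0.09 in females, with the same sign as Asns in each sex. Over the animals, with group means removed, Asns and Chac1 had r = 0.57. Trib3 had r = -0.60 with Asns and -0.34 with Chac1.

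Herpud1 (chr8:94386438-94395377, plus strand), a membrane protein that organises the degradation complex, had the smallest p of the members in the averaged effect. Its lowest, median and highest levels were 11.61, 11.77 and 11.90 in GnRH males, against 11.20, 11.58 and 11.69 in placebo males. Of the 8 GnRH males, 7 lay above every placebo male. In GnRH females the levels were 11.50, 11.69 and 11.95, against 11.76, 11.51, 11.32, 11.49 and 11.66 in placebo females, and 5 of 6 lay above the placebo mean. The difference was 0.22 ± 0.08 in males (1.17-fold, adjusted p = 0.351), 0.17 ± 0.09 in females (1.12-fold, adjusted p = 0.549) and 0.19 ± 0.06 on average (1.14-fold, unadjusted p = 0.00216, adjusted p = 0.0949). Leaving out 1 animal at a time, the female difference ran from 0.11, without placebo female 3, to 0.22, without placebo female 1. The averaged difference missed the threshold, with limma and an adjusted p over all genes. It passed in 4 of the other fits, with weights per animal (adjusted p = 0.0335), with the length slope described further on as a covariate (0.0431), without placebo female 1 (0.0482) and without GnRH female 10 (0.0422), and its adjusted p over all the fits tried ran from 0.0335 to 0.229.

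Syvn1 (HRD1) is the ubiquitin ligase of this pathway and Sel1l its partner. Syvn1 had a lowest, median and highest level of 11.27, 11.50 and 11.62 in GnRH females, against 11.34, 11.48, 11.28, 11.25 and 11.29 in placebo females, and 3 of 6 GnRH females lay above every placebo female. The difference was 0.15 ± 0.07 in females (adjusted p = 0.472) and 0.03 ± 0.06 in males (11.31 ± 0.10 in GnRH males, 11.29 ± 0.12 in placebo males). Sel1l differed by -0.02 in males and -0.04 in females. With the length slope as a covariate, the female difference was 0.11 for Syvn1 and 0.02 for Sel1l.

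Derl1, a channel protein of the same complex, had a lower mean with GnRH in both sexes. It averaged 10.63 ± 0.05 in GnRH males and 10.69 ± 0.09 in placebo males, and 10.60 ± 0.09 in GnRH females and 10.70 ± 0.07 in placebo females. All 8 GnRH males and 5 of 6 GnRH females lay below the placebo mean of their sex. The averaged difference was -0.08 ± 0.03 (adjusted p = 0.286). Neither of its relatives had a lower mean with GnRH in both sexes. Derl3, the least abundant member, averaged 6.70 ± 0.15 in GnRH males and 6.62 ± 0.24 in placebo males, and 6.74 ± 0.21 in GnRH females and 6.55 ± 0.10 in placebo females, with differences of 0.09 in males and 0.18 in females. Derl2 averaged 9.35 ± 0.08 in GnRH males and 9.39 ± 0.12 in placebo males, and 9.49 ± 0.11 in GnRH females and 9.42 ± 0.04 in placebo females. Edem1 differed by 0.09 ± 0.06 in males, where all 8 GnRH animals lay above the placebo mean (8.75 ± 0.06 in GnRH males, 8.66 ± 0.12 in placebo males), and by 0.02 ± 0.06 in females. Of the translocon proteins, Sec61b differed by -0.02 in males and 0.11 in females, and Ssr1 by -0.07 in males and -0.08 in females. With the length slope as a covariate, the female difference was 0.02 for Sec61b, -0.05 for Ssr1 and 0.11 for Derl3.

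**Figure D3:**
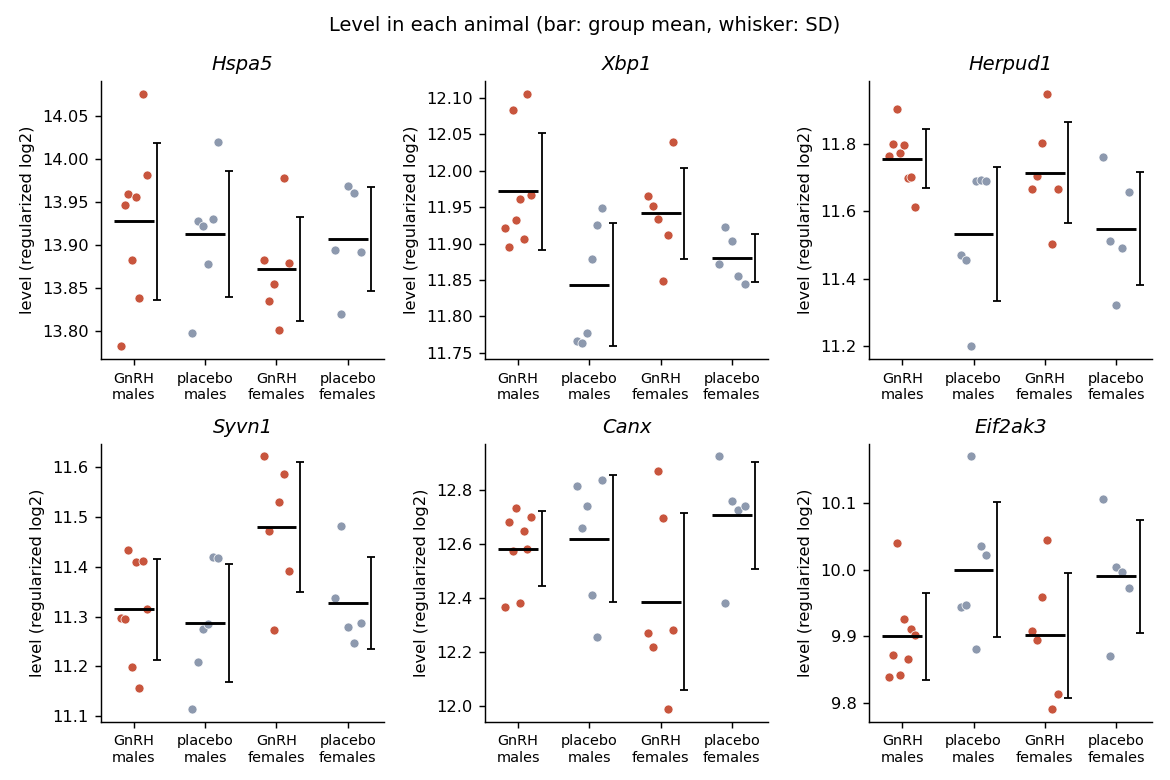
Level of 6 members in each animal (dots, regularized log2), by group, with the group mean (bar) and SD (whisker). GnRH males lie above most placebo males for Xbp1 and Herpud1 and below most for Eif2ak3, and 4 of 6 GnRH females lie below every placebo female for Canx, while Hspa5 overlaps throughout.

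Differences between males and females were as small. Within GnRH, Syvn1 had 11.31 ± 0.10 in males and 11.48 ± 0.13 in females, a difference of -0.16 ± 0.06 (unadjusted p = 0.0104, adjusted p = 0.770). Derl2 had 9.35 ± 0.08 in males and 9.49 ± 0.11 in females (-0.14, adjusted p = 0.779), and Atf6b 10.13 ± 0.09 in males and 10.24 ± 0.11 in females (-0.11, adjusted p = 0.862). Within placebo the members with the smallest p were Dnajb9 at -0.15, Dnajb11 at -0.14 and Trib3 at 0.15 (adjusted p = 0.999 for each).

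A further 150 genes of the same pathway were listed by role, and 149 of them were tested. None of the 149 passed the test in any contrast. At an unadjusted p under 0.05, 3 differed in males, 11 in females and 15 on average, beside the background shares given above. In the averaged effect 5 of these 15 were positive. The gene with the smallest p in each role was Nupr1 among ATF4 and CHOP targets (0.23 ± 0.07, adjusted p = 0.118), Atf4 itself among sensors and transcription factors (0.12 ± 0.05, 0.235), and Tmx3 among folding and oxidation factors (-0.13 ± 0.05, 0.233). It was Sec23b in ER to Golgi traffic (-0.11 ± 0.04, limma adjusted p = 0.209), Stt3a in translocation and glycosylation (-0.07 ± 0.03, 0.357) and Tmem129 in degradation (-0.08 ± 0.04, 0.395). Over the 149 genes the median difference was -0.01 in males and -0.02 in females, against 0.00 in each sex for all genes tested.

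The 12 heat shock genes of the cytosol and mitochondria were listed for contrast with their ER relatives, and they share the same animals. In males 1 of 12 passed, against 0.496% of all genes. All 12 had a positive difference in males, with a median of 0.26, and 8 of 12 had an unadjusted p under 0.05, against 6.42% of all genes. Dnaja1, a cytosolic J-domain co-chaperone, rose in males to 11.33, 11.52 and 11.70 (lowest, median, highest) with GnRH, against 11.03, 11.22 and 11.50 with placebo (0.31 ± 0.07, adjusted p = 0.0378). The groups overlapped. The adjusted p ran from 0.00929 to 0.221 over the fits tried, the highest without GnRH males 18 and 21 together. The call was lost without placebo male 13 (0.138), 14 (0.154), 15 (0.0775) or 16 (0.0780), without GnRH male 18 (0.0981), 20 (0.0908), 21 (0.0960) or 25 (0.0630), with no filter on low values (0.0951) and with the 2 male groups alone (0.0792). Hspa8, the constitutive cytosolic Hsp70, differed by 0.28 ± 0.08 (adjusted p = 0.123), beside the 0.01 ± 0.05 of its ER relative Hspa5. In females 7 of 12 were positive with a median of 0.03 and none passed. The test of the sex difference for Dnaja1 gave 0.23 ± 0.11 (adjusted p = 0.999).

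Across the pituitary, library medians lay between 8.09 and 8.13 and correlations between libraries between 0.992 and 0.998. Of 50 marker genes tested, in the averaged effect 3 of 5 gonadotrope markers passed as higher and 1 as lower, 1 of 4 endothelial markers passed as higher, and none passed in the other 12 lists, B and plasma cells included. The mean level of the 5 gonadotrope markers ran from 11.2 to 11.7 in GnRH males, against 10.5 to 10.9 in placebo males, and from 11.3 to 11.6 in GnRH females, against 10.5 to 10.9 in placebo females. The part of cell composition in the members' values was not tested. Of the marker lists, red blood cells varied most within each group, with a mean level from 10.8 to 14.2 among placebo females. Most markers of that list are globin genes, and globin transcripts were depleted before sequencing. The part of depletion in this spread was not tested. The slope of a library's values on log2 exon length followed the first principal component of the deviations from the group means (absolute r = 0.97, 25.6% of their variance). The slope was 0.821 ± 0.012 in GnRH males, 0.825 ± 0.020 in placebo males, 0.818 ± 0.029 in GnRH females and 0.833 ± 0.013 in placebo females (mean ± SD).

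The members moved with this length slope in both directions. Over the 25 animals, with group means removed, r with the slope was above 0.5 for 6 of 32 members (18.8%, against 17.9% of all genes) and below -0.5 for 11 (34.4%, against 16.5%). Canx had r = 0.89, Sel1l 0.87, Dnajc3 0.81 and Dnajb9 0.77, while Calr had -0.81, Sec61b -0.80 and Manf -0.80. The slope was computed from the same libraries, so these values are a description. Relations between members are therefore given both with and without it.

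Whether the members followed BiP from animal to animal was examined with Hspa5 as the measure on the x axis, over deviations of 25 animals from their group means. Of the 31 other members, 14 had a limma p under 0.05 before adjustment, against 12.6% of all genes, and all 14 relations were positive. None passed after adjustment over the 19140 genes, of which 0% passed. The closest was Pdia6 (r = 0.84, permutation p = 2e-05, rho = 0.81, permutation p = 4e-05, limma adjusted p = 0.0940), with r = 0.80 without the 2 animals farthest on Hspa5. Creld2, a secreted protein induced by ER stress, had r = 0.74 and rho = 0.80, Pdia4 r = 0.73 and rho = 0.67, Hsp90b1 r = 0.72 and rho = 0.73, Dnajb11 r = 0.72 and rho = 0.74, Calr r = 0.66 and rho = 0.62, and Manf r = 0.62 and rho = 0.59. Each of these 6 had a permutation p between 0.00014 and 0.00131 for r and a limma adjusted p between 0.101 and 0.237. The count before adjustment was 8 of 31 without the 2 farthest animals, against 1710 of the 19140 genes, and 5 of 31 with quantile normalization, against 1151. All of these relations were positive, and the median r over the 31 members was 0.40 as reported, 0.32 without the 2 animals and 0.16 with quantile normalization. With quantile normalization and the group means removed, Pdia6 had r = 0.46, Creld2 0.41 and Hyou1 0.33, the last beside 0.56 on the deposited scale. As a description, 13 of 31 members (41.9%) had r above 0.5 with Hspa5, against 2.88% of all genes.

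With the length slope removed as well, a step chosen after seeing the data, 3 of 31 members passed over all genes, against 0.449%, and all 3 relations were positive. They were Hyou1 (r = 0.82, permutation p = 3e-05, rho = 0.79, adjusted p = 0.0226), Pdia6 (r = 0.81, permutation p = 2e-05, rho = 0.82, adjusted p = 0.0267) and Dnajc3, an inhibitor of PERK (r = 0.78, permutation p = 2e-05, rho = 0.79, adjusted p = 0.0360). Before adjustment 15 of 31 had a limma p under 0.05, against 13.8% of all genes. Dnajc3 had r = 0.16 and Canx -0.04 before this step, and 0.78 and 0.61 after it.

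**Figure D4:**
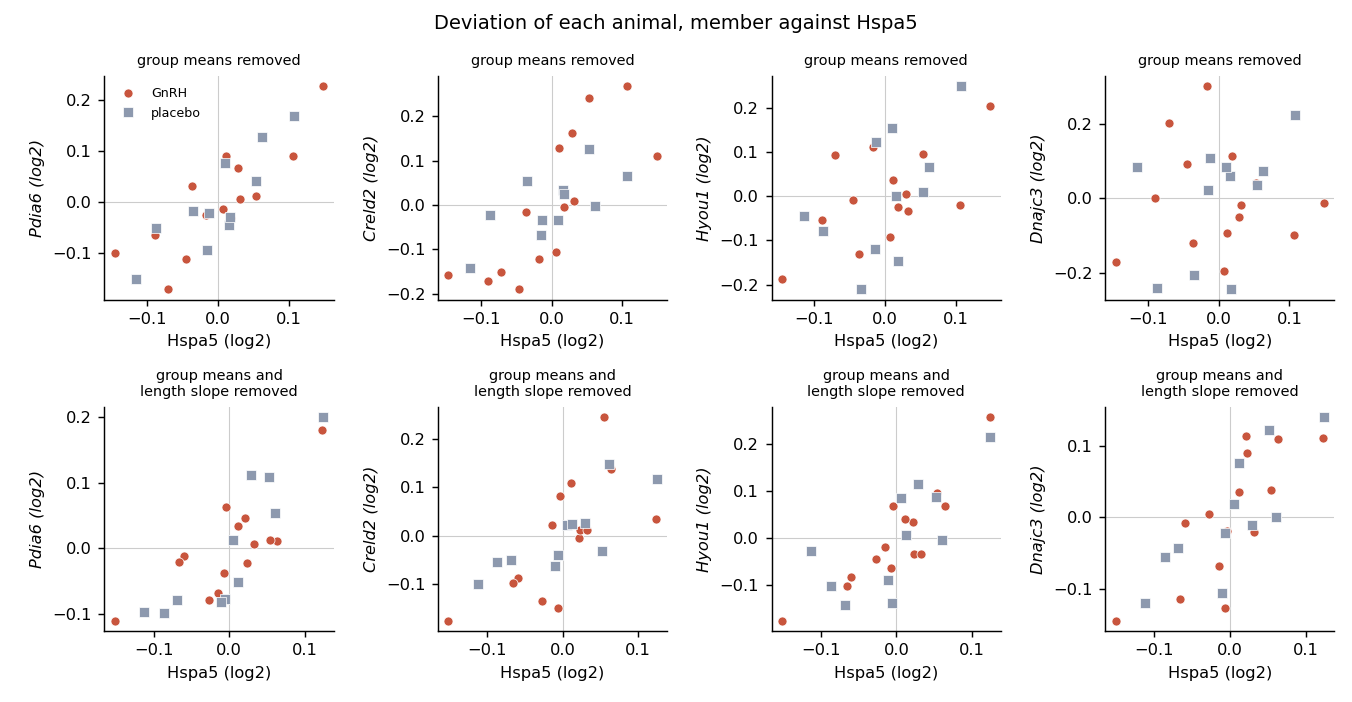
Deviation of each animal from its group mean (log2) for 4 members against that of Hspa5, with GnRH animals as circles and placebo animals as squares. The upper row has the group means removed and the lower row also the length slope, and Dnajc3 follows Hspa5 in the lower row (r = 0.78) and not in the upper one (r = 0.16).

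The relations with Hspa5 were also set beside the promoter elements, as a description with no test. Of the 13 members with r above 0.5, 5 carry an ER stress response element of either kind, 6 carry none and Hyou1 and Manf have no promoter in the table. The 10 members with either ER stress response element had a median r of 0.53 with Hspa5 (range -0.21 to 0.84), and the 18 without one a median of 0.28 (-0.26 to 0.73). With the length slope removed the medians were 0.69 and 0.36. Herpud1, Syvn1 and Derl3 carry an element and had r of -0.21, 0.40 and 0.11 with Hspa5. Pdia4, with r = 0.73, has no element in the window searched. Points share their animals and libraries, and the elements were searched only in the promoter windows of each gene.

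Over all 496 pairs of members the median r was 0.18, and 0.28 with the length slope removed, against 0.00 for all pairs of genes in both cases. The 6 pairs of disulfide isomerases had r between 0.52 and 0.79, and between 0.38 and 0.73 with the slope removed. Among the 9 lumenal chaperones the median r over 36 pairs was 0.43, and 0.50 with the slope removed. The 21 pairs of degradation factors had a median of 0.12, and 0.09 with the slope removed. Whether these medians differ between roles was not tested.

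**Figure D5:**
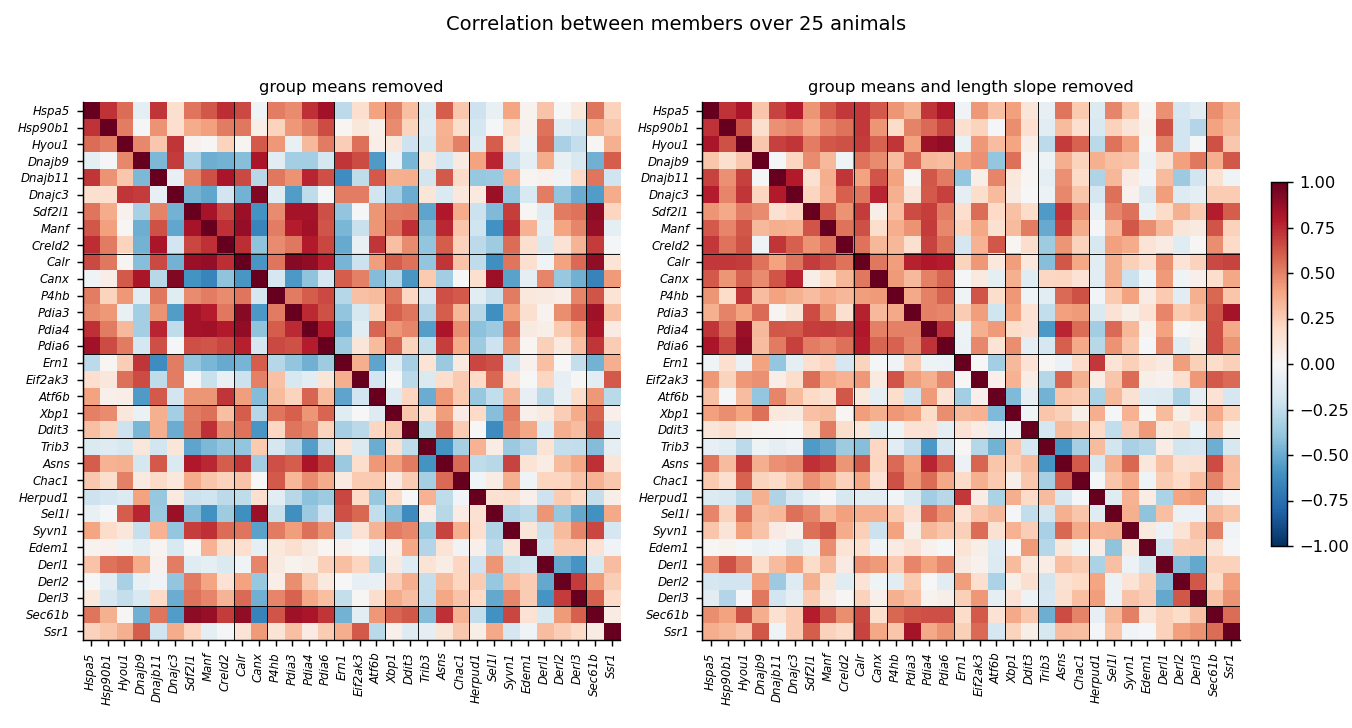
Pearson r between each pair of the 32 members over 25 animals, with group means removed (left) and with the length slope removed as well (right), ordered by role with lines between roles. The chaperones and isomerases at the upper left are mostly positive in the right panel, where negative values of Canx and Dnajc3 in the left panel are mostly gone.

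Ddit3 gave another picture. With group means removed, 4 of 30 members passed over all genes, where 8.53% of all genes passed, and 13 of 30 had an unadjusted p under 0.05, against 27.2%. The 4 were Manf (r = 0.73, permutation p = 0.0005, rho = 0.64, limma adjusted p = 0.0191) and Sec61b (r = 0.62, rho = 0.56, adjusted p = 0.0296), and with negative sign Canx (r = -0.59, rho = -0.63, adjusted p = 0.0318) and Sel1l (r = -0.63, rho = -0.63, adjusted p = 0.0370). Without the 2 animals farthest on Ddit3, r was 0.55 for Manf, 0.40 for Sec61b, -0.55 for Canx and -0.55 for Sel1l, and none of the 4 passed, where 0 of all 19140 genes did. In GnRH animals alone Manf had r = 0.79, and again 0 of the 19140 genes passed. With the length slope removed r was 0.51 for Manf, 0.27 for Sec61b, -0.12 for Canx and -0.25 for Sel1l. None passed, where 0% of all genes did and 1 of 30 members had an unadjusted p under 0.05, against 6.43%. Ddit3 itself had r = -0.61 with the slope.

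Relations with Atf3 and Fshb were examined in the same way. For Atf3, a target of the PERK branch and the factor in the title of the series, none of the 32 members passed over all genes, against 0.428%. None had an unadjusted limma p under 0.05, against 1043 of the 19140 genes. The r of Atf3 with the members lay between -0.39 and 0.34. By rank, Trib3 had rho = 0.47 with Atf3 (permutation p = 0.0327, unadjusted, r = 0.34). Atf3 varied widely among GnRH males, with deviations of 1.99 and 1.83 in animals 18 and 21 and -2.22 in animal 19. Without the 2 animals farthest on Atf3, 4 of 32 members had an unadjusted p under 0.05, against 1572 of the 19140 genes, among them Ddit3 (r = -0.56) and Trib3 (r = 0.52), and none passed (smallest limma adjusted p = 0.446). For Fshb none passed, against 0.00522% of all genes. Before adjustment 2 of 32 members had a limma p under 0.05, against 1690 of the 19140 genes. The r of Fshb lay between -0.30 for the lowest and 0.46 for the highest, that of Derl3 (permutation p = 0.0214, rho = 0.38, limma adjusted p = 0.517).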

How the data were processed

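The RNA integrity number was over 8.2 in all samples (median 9.1), per the labels' protocols. Polyadenylated RNA was sequenced after depletion of ribosomal and globin transcripts, per the labels' protocols. The submitters' processing notes name bcl2fastq, STAR, featureCounts and mouse build mm10, with versions not given in the sources used here. The deposited values are regularized log2 values per gene and animal, by the name the authors gave the table. That transformation shrinks differences of low genes. No counts were analysed here, so depth is unknown and no counting interval is given. Gene positions and exon lengths are from GENCODE M21 (mm10), and promoters from RefSeq (GRCm38.p6).

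The 25 animals form 4 groups by label. Nothing says whether animals were processed in batches, and no number is shared between groups. The members and gene lists were chosen with earlier results of these data known. The 19141 genes that averaged 3 or more entered a limma fit (version 3.58.1, R 4.3.3) with 4 group means, 21 residual degrees of freedom and a variance trend. The 6 contrasts were two-sided, with Benjamini-Hochberg adjustment over all genes tested and a threshold of 0.05. Errors after ± are standard errors for differences and SDs for group means.

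Relations with Hspa5, Ddit3, Atf3 and Fshb used deviations from group means, with 100000 permutations within groups (two-sided, unadjusted, 125 relations) for Pearson r and Spearman rho, in Python 3.11.15. In place of an adjustment over those 125, each x measure also entered the limma fit as a covariate, adjusted over the 19140 other genes. Named members are those with the 6 smallest p in each GnRH contrast and in the difference of effects and the 3 smallest in each sex contrast. In other lists it is genes that passed or else the smallest averaged p. The scripts were tested on simulated data. A comparison of protein ends, planned at the start, was not made. Alternatives were other scalings, filters, variance models and animal weights, the 2 groups alone, and each animal left out.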

Additional observations from a re-analysis of the deposited data

Results flagged for a closer look

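Each of the 128 combinations of member and group was screened for an animal far from the rest of its group, and 4 were found, where chance at 1 in 20 would give 6.4. Eif2ak3 in GnRH males had its highest value, 10.04, in animal 20, with the nearest at 9.93 and a mean of 9.88 over the others. Pdia4 in placebo males had its lowest value, 11.56, in animal 12, with the nearest at 11.68. Calr in placebo females had its highest value, 14.18, in animal 3, with the nearest at 14.00. Dnajc3 in placebo females had its lowest value, 11.02, in animal 2, with the nearest at 11.28. No member differed between the sexes in its GnRH effect (smallest limma adjusted p = 0.999).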

How the results depend on the processing

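No paired analysis was possible because no replicate number is shared between groups. Depth is unknown, so the precision rests on the spread between animals. The count of members called in females, in the difference of effects and between the sexes stayed at 0 in every fit run. Weights per animal gave 1 member in males (Herpud1, 0.27) and 3 on average (Xbp1 at 0.12, Herpud1 at 0.20 and Canx at -0.25), and the length slope as a covariate, added after seeing the data, gave 1 on average (Herpud1). Leaving out 1 animal moved some differences that had not passed by over 1.5 times, among them Edem1 in males (0.05 to 0.12, reported 0.09), Eif2ak3 in males (-0.12 to -0.07, reported -0.10), Atf6b (-0.14 to -0.07, reported -0.11) between the sexes within GnRH, Trib3 (0.09 to 0.19, reported 0.15) within placebo, and in the difference of effects Dnajb9 (0.12 to 0.24, reported 0.18) and Atf6b (-0.12 to -0.05, reported -0.09). Leaving out each animal in turn gave 0 to 1 members on average and 0 in the other contrasts.

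Over all genes, 19 were called in females, 95 in males and 327 on average. No filter on low values gave 7 in females and 42 in males. Weights per animal gave 62 in females, 239 in males and 942 on average. Without GnRH males 18 and 21, an alternative added after seeing the data, there were 32 in females and 38 in males. The length slope as a covariate gave 36 in females, 164 in males and 491 on average. Leaving out each animal gave 4 to 67 in females (67 without GnRH female 10), 46 to 153 in males (153 without GnRH male 19), 235 to 389 on average, 7 to 10 between the sexes within placebo and 8 to 17 within GnRH.

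Relations past the threshold with Hspa5 numbered 0, and 3 with the length slope removed, against 0 and 86 of 19140 genes. Those with Ddit3 numbered 4, and 0 in GnRH animals only, 0 without the 2 farthest animals, 0 with the length slope removed and 6 with quantile normalization. Over all 19140 genes those with Ddit3 numbered 1632 as reported and 2378 with quantile normalization, and 0 in each of the other 3 settings. Among the values of single members under an alternative, 1064 kept their side of the threshold, 10 newly passed it and 12 no longer did. For the relations, a change of sign between values that both missed the threshold was counted among the 1064. An example is Dnajc3 with Hspa5, whose r ran from -0.05 to 0.78 over the alternatives, beside 0.16 as reported. The causes were not tested. Taking the mean of all rows of a symbol was not run, since each member has 1 row.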
